A study of Mus musculus with 60 samples.

Results

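The 10 globin genes of the mouse were followed across whole-blood RNA sequencing of 60 male CD2F1 mice. They comprised the adult alpha genes Hba-a1 and Hba-a2, the adult beta genes Hbb-bs and Hbb-bt, the theta genes Hbq1a and Hbq1b, the embryonic genes Hbb-y, Hbb-bh1 and Hba-x, and the minor beta-like gene Hbb-bh2. They were chosen by name and not by a filter on measured values, but with earlier results of these data known. Of these names, 8 were found as gene names in the deposited result tables, and Hbb-y and Hba-x were found by their identifiers through the reference annotation. They made up 10 of the 49315 genes of each count table.

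BIO 300 is an oral powder of synthetic genistein, a soy isoflavone developed as a radiation countermeasure. Mice were a few weeks old at purchase, were housed in shared cages, and received vehicle or BIO 300 by mouth each morning and evening for several days, at a Low (50 mg/kg), Med (100 mg/kg) or High (200 mg/kg) dose. The label of each sample gives the dose by name, and the mg/kg come from the study's methods. Vehicle, Low, Med and High mice were bled 24 h past their final dose (Day 0), and other mice of the same treatments 48 h past it (Day 1), without irradiation. A further vehicle group and a further High group received 9.2 Gy of total-body irradiation (TBI) from cobalt on Day 0 and were bled on Day 1. Each of the 10 groups held 6 mice, and each mouse gave 1 library. CD2F1 mice are first-generation hybrids of BALB/c and DBA/2, so all groups shared 1 genotype. Both parent strains are known to carry another haplotype of the beta locus than the C57BL/6 reference genome. The counts given here under Hbb-bs and Hbb-bt are therefore those of reads that aligned to the reference copies, and the genes Hbb-b1 and Hbb-b2 of the other haplotype were not analysed here.

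Haemoglobin carries oxygen as a tetramer of a pair of alpha-type and a pair of beta-type chains, each holding a haem group. The genes lie in an alpha cluster and a beta cluster that are switched in order during development, from embryonic genes in primitive red cells to adult genes in definitive red cells, under a distant enhancer region at each cluster. Mature mouse red cells have no nucleus, and most of the globin RNA of blood sits in reticulocytes, the youngest circulating red cells, so it is known to follow the output of the erythroid marrow. In whole blood, fewer cells of a type and less RNA per cell cannot be told apart.

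In the GRCm38 assembly, with GENCODE vM21 coordinates, the alpha cluster lies on the forward strand of chromosome 11, in the order Hba-x (32276400 to 32278116), Hba-a1 (32283511 to 32284465), Hbq1b (32286965 to 32287784), Hba-a2 (32296489 to 32297298) and Hbq1a (32300069 to 32300873). The beta cluster lies on the reverse strand of chromosome 7, in the order Hbb-y (103851749 to 103853216), Hbb-bh1 (103841637 to 103843164), Hbb-bh2 (103839124 to 103840520), Hbb-bs (103826534 to 103828096) and Hbb-bt (103812524 to 103813996), each given from its lowest to its highest coordinate. Both adult pairs are near copies, and this bears on how reads could be assigned. Hba-a1 and Hba-a2 differed at 1 of 426 coding bases and Hbb-bs and Hbb-bt at 1 of 441. The coding stretches around these differences are shown 5′ to 3′ in the sense of the messenger RNA, from the GENCODE vM21 transcripts, with the differing base in capitals. They are exonic, from coding base 336 to 425 in the alpha genes (chr11:32284298-32284387 and chr11:32297115-32297204, forward strand) and from 352 to 441 in the beta genes (chr7:103826668-103826757 and chr7:103812659-103812748, reverse strand).
Hba-a1: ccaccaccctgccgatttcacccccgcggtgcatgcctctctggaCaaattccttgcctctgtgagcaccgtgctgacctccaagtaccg
Hba-a2: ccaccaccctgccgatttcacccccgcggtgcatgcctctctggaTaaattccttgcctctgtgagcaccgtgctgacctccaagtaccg
Hbb-bs: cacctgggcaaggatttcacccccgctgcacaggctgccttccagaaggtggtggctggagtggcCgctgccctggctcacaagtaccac
Hbb-bt: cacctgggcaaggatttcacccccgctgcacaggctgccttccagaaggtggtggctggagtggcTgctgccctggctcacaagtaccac

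A read that spans neither this base nor a differing base outside the coding sequence cannot be placed on 1 gene of a pair, and the study counted unique hits. Among all windows of 75 bases along each transcript, 37.8% of those of Hba-a1, 19.0% of Hba-a2, 35.7% of Hbb-bs and 43.4% of Hbb-bt occurred in no other gene. For windows of 150 bases, the shares were 51.6%, 34.3%, 41.3% and 49.3%. Hbq1a and Hbq1b were better separated (70.9% and 68.4% at 75 bases). Every window of Hbb-y, Hbb-bh1, Hbb-bh2 and Hba-x was unique at each length tested. Their coding sequences were farther from the adult genes, with 74.4% identity between Hbb-bs and Hbb-y, 73.9% between Hbb-bs and Hbb-bh1, and 61.7% between Hba-a1 and Hba-x. Read length was not given in the sources used here. The split of counts within an adult pair is thus uncertain, and the strain difference at the beta locus adds to this for Hbb-bs and Hbb-bt.

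**Figure D1:**
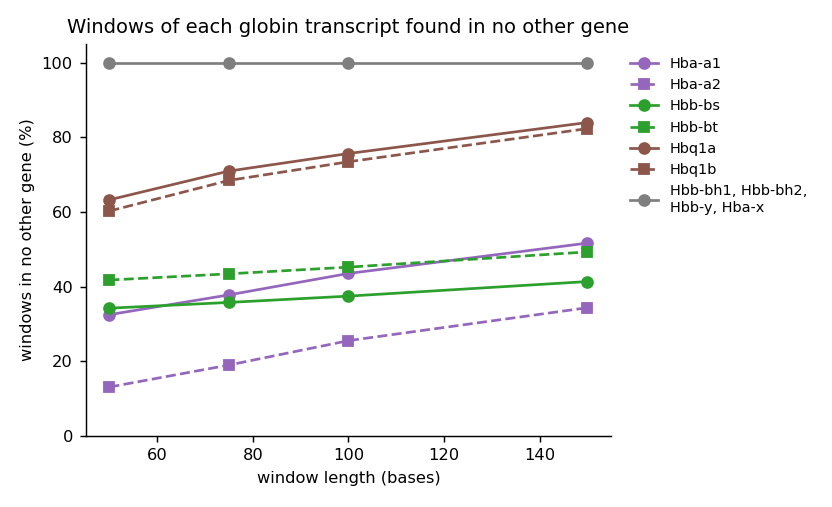
Share of windows (y axis, percent) of each globin transcript that occur in no other gene, by window length (x axis, bases). The lines of Hba-a2, Hba-a1, Hbb-bs and Hbb-bt run lowest, at 19.0% to 43.4% for 75 bases, and the 4 embryonic-type and minor genes lie at 100%.

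Promoters were compared because adult and embryonic genes are read side by side below. In the 250 bases before each start in RefSeq (GRCm38.p6), CCAAT (the motif of CCAAT-box factors), CACCC (that of KLF1) and GATAA (that of GATA1) were searched on both strands, and 9 of the 10 genes had an entry. All 3 motifs occurred before Hba-a1, Hba-a2, Hbb-bs, Hbb-bt and Hbb-y, against 3.45% of 32851 promoters. Singly, CCAAT occurred in 33.8% of all promoters, CACCC in 52.0% and GATAA in 22.6%. Hba-x held CACCC and GATAA, Hbb-bh2 held GATAA and both theta genes held CCAAT. The bases from 120 to 11 before the start are shown for 1 adult gene, Hba-a2 (chr11:32296372-32296481, forward strand), and 1 embryonic gene, Hbb-y (chr7:103853218-103853327, reverse strand), with these motifs in capitals. Both stretches hold CCAAT and CACCC, while GATAA lies farther from the start in both genes and outside the bases shown. Both stretches lie outside annotated exons.
Hba-a2: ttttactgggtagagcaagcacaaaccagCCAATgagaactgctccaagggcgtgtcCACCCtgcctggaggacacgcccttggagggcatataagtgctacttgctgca
Hbb-y: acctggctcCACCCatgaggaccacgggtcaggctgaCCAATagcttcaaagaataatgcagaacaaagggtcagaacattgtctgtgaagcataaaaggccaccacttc

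Library totals ran from 15099415 to 45589415 counts (median 24877994). The study's methods state that globin and ribosomal RNA were removed from total RNA before library preparation, while the sample labels name polyA selection, so globin counts are those left by whichever step was used. A single non-coding gene model, Gm26917, took a median of 7.36% of the counts of vehicle-treated mice on Day 1, 0.278% at the Med dose, 0.165% at the High dose and 11.8% in Low mice on Day 0. Results are therefore given on 2 scales, with TMM factors and with total counts alone. The TMM factor had a median of 1.45 in vehicle-treated mice on Day 1, 0.558 in Med and 0.538 in High mice on Day 1, and 1.90 in Low mice on Day 0. Hepatocyte marker genes, foreign to blood, summed highest in mouse 51 of the vehicle TBI group (39408 counts per 1000000, CPM) and mouse 57 of the High TBI group (14661 CPM).

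Globin counts were dominated by a single gene. These counts are unique hits left after any globin removal, and the adult genes differ in the share of windows found in no other gene. The levels therefore do not give the RNA abundance of adult alpha against adult beta genes. Per kilobase of exon and on total counts, Hbb-bs had a median level of 134133 CPM over the 60 mice, Hbb-bt 4453 CPM, Hba-a1 1875 CPM and Hba-a2 932 CPM. The theta genes, alpha-like genes whose protein has no settled role in haemoglobin, were far lower, with 90.3 CPM per kilobase for Hbq1b and 30.4 for Hbq1a. Hbb-bh2, Hbb-y, Hbb-bh1 and Hba-x stood near the detection limit, at 0.546, 0.192, 0.0725 and 0.0689 CPM per kilobase. A count of 0 in 1 library allows up to 0.0658 to 0.199 CPM, by counting error only. Over all 60 mice, Hbb-bh2 had 543 counts, Hbb-bh1 228, Hbb-y 198 and Hba-x 109, against 157785720 for Hbb-bs.

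The 10 genes together took 8.31% to 12.4% of the counts of vehicle-treated mice on Day 1, with a median of 9.77%. At the Low dose on Day 1 the share was 8.03% to 12.2% (median 10.1%), which overlapped the vehicle range. In Med mice it was 14.0% to 22.5% (median 15.9%), and each of the 6 lay above each vehicle-treated mouse. In High mice it was 10.9% to 22.1% (median 16.9%), with 2 mice inside the vehicle range.

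On Day 0 the shares were 6.47% to 11.3% (median 9.72%) with vehicle, 4.11% to 11.1% (median 5.32%) at the Low dose, 5.42% to 14.9% (median 10.8%) at the Med dose and 10.3% to 13.8% (median 11.0%) at the High dose. All 4 ranges overlapped, and in the Low group 1 mouse (mouse 2) held the highest value. After TBI the share spread widely, from 1.63% to 13.6% (median 9.24%) with vehicle and from 6.29% to 13.9% (median 12.7%) at the High dose. The lowest values of these groups came from mice 51 and 57, the mice with the highest hepatocyte marker counts. Their part in the result was not tested, and without them the medians were 9.58% and 13.2%.

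Leaving Gm26917 and mitochondrially encoded genes out of the total moved the median to 10.7% in vehicle-treated mice on Day 1, 16.1% in Med and 17.0% in High mice, and to 6.08% in Low mice on Day 0. The order of these groups was unchanged by this step.

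**Figure D2:**
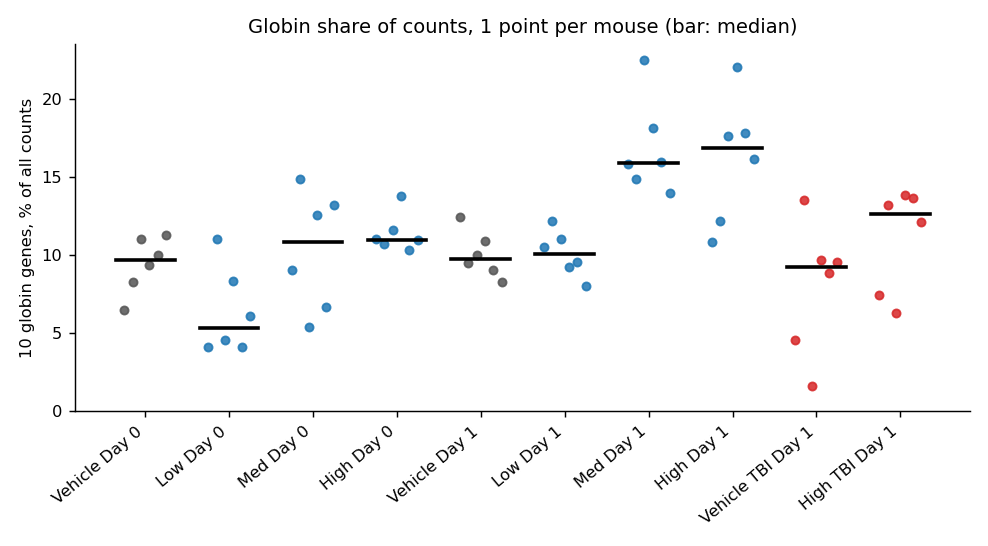
Share of all counts taken by the 10 globin genes (y axis, percent) in each mouse, by group (x axis), with a bar at the median of 6 mice. Med mice on Day 1 sit between 14.0% and 22.5%, above the 8.31% to 12.4% of vehicle-treated mice on Day 1.

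At the High dose on Day 1, the comparison asks how globin RNA stood 48 h after the last dose in drug-treated, unirradiated mice. With TMM factors all 10 globin genes rose against vehicle, where a DEG had an adjusted p under 0.05 in edgeR's quasi-likelihood test and an absolute log2 fold change over 1. In that comparison 17.3% of all 23513 genes tested were higher DEGs. The log2 fold changes of the 10 genes had a median of 2.41, against -0.48 over all genes. On total counts, 3 of the 10 were DEGs (Hba-a1, Hba-a2 and Hbb-bh1), against 3.03% of all genes. The median was then 0.87 for the globin genes and -1.96 over all genes, and all 10 log2 fold changes were above 0 on both scales. Relative to the median of all genes, the globin median stood 2.89 higher with TMM factors and 2.83 higher on total counts. A change of scaling shifts the log2 fold changes of all genes by nearly the same amount. The closeness of these values, here and in the comparisons below, is therefore no check on scaling.

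The adult alpha genes encode the alpha chain shared by all adult haemoglobins. On total counts Hba-a1 had levels of 1060, 1445 and 2476 CPM (lowest, median and highest) with vehicle and 2733, 3335 and 10715 CPM at the High dose. The groups did not overlap, and mouse 46 was far above the other High mice. The log2 fold change was 1.57 ± 0.34 (SE, n = 6 mice per group) on total counts with an adjusted p of 0.000592, and 3.14 ± 0.38 with TMM factors with an adjusted p of 6.03e-06 (edgeR's quasi-likelihood test, Benjamini-Hochberg). Hba-a2, its near copy, had 438, 514 and 795 CPM with vehicle and 932, 1475 and 4049 CPM at the High dose on total counts, again without overlap. Its log2 fold change was 1.67 ± 0.32 on total counts and 3.23 ± 0.35 with TMM factors.

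The adult beta genes moved less. Hbb-bs had 78718, 92336 and 117840 CPM with vehicle and 102626, 159944 and 201282 CPM at the High dose on total counts, and the ranges overlapped in their lower part. The log2 fold change of Hbb-bs was 0.67 ± 0.20 on total counts, under the limit of 1, and 2.25 ± 0.58 with TMM factors (adjusted p = 0.00369, edgeR's quasi-likelihood test). It was no longer a DEG when High mouse 47 was left out (adjusted p = 0.0524). Hbb-bt had 2799, 3201 and 3545 CPM with vehicle and 2092, 3636 and 4551 CPM at the High dose on total counts, with the vehicle range inside the High range. Its log2 fold change was 0.15 ± 0.17 on total counts and 1.73 ± 0.27 with TMM factors.

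For the theta genes, the total-count levels of Hbq1a were 14.6, 15.1 and 18.3 CPM with vehicle and 21.5, 25.5 and 32.7 CPM at the High dose. Those of Hbq1b were 44.5, 54.8 and 63.0 CPM with vehicle and 68.2, 77.0 and 92.0 CPM at the High dose. Neither gene overlapped between the groups. The log2 fold changes on total counts were 0.73 ± 0.12 for Hbq1a and 0.57 ± 0.11 for Hbq1b, with adjusted p of 8.52e-05 and 0.0003, and so under the limit of 1. With TMM factors they were 2.28 ± 0.19 and 2.11 ± 0.19, the smallest standard errors among the 10 genes.

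**Figure D3:**
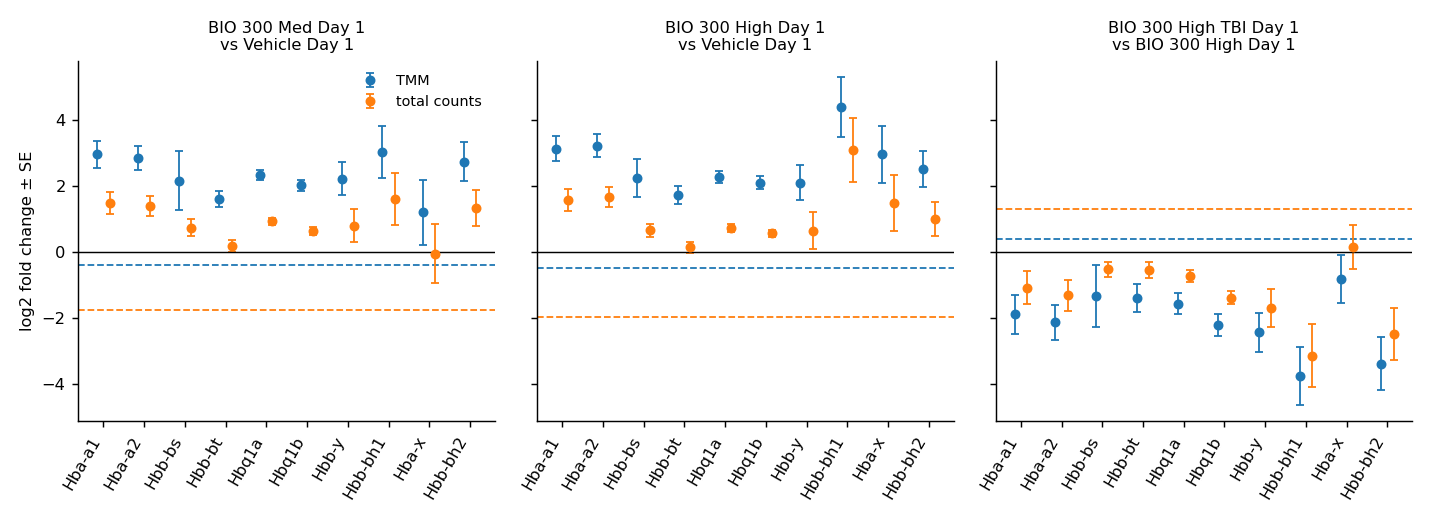
Log2 fold changes ± SE (y axis) of the 10 genes (x axis) from edgeR with TMM factors and on total counts in 3 comparisons, with dashed lines at the median of all genes tested on each scale. In the High Day 1 comparison every point lies above 0, while the dashed lines lie at -0.48 and -1.96.

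In Med mice on Day 1, 9 of the 10 genes rose against vehicle with TMM factors, against 18.2% of all genes, and Hba-x did not (log2 fold change 1.21, adjusted p = 0.297). On total counts 3 genes were DEGs, Hba-a1 (1.49 ± 0.34), Hba-a2 (1.39 ± 0.30) and Hbb-bh2 (1.34 ± 0.55), against 4.14% of all genes, and the log2 fold change of Hba-x was -0.04. Hba-a1 had 1934, 3509 and 9042 CPM on total counts, and its lowest value lay inside the vehicle range given above. Hbb-bs had 131767, 152217 and 207469 CPM on total counts, above every vehicle-treated mouse. Its call with TMM factors (log2 fold change 2.17 ± 0.89, adjusted p = 0.0445) held in 4 of 12 fits that each left out 1 mouse. Hbq1a rose with the smallest adjusted p of the 10 genes (log2 fold change 2.34 ± 0.16 with TMM factors, 3.73e-08 by edgeR's quasi-likelihood test). The Med and High comparisons share the vehicle-treated mice of Day 1, and so are not independent of each other.

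At the Low dose on Day 1 edgeR's test called 0 of the 10 globin genes and 0% of all genes. Of the 10, 2 had an unadjusted p under 0.05 by edgeR. DESeq2 called 0 of the 10 and 39 of all genes, with 5 of the 10 at an unadjusted p under 0.05. The log2 fold changes were all above 0 with TMM factors, and the largest were those of Hba-x (1.06 ± 0.88) and Hbb-bh2 (1.06 ± 0.54).

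The embryonic genes were read as counts, since most libraries held a handful. Hbb-y, the epsilon-type chain of primitive red cells, had 1 to 7 counts per mouse with vehicle on Day 1 (median 2.5), 3 to 16 at the Med dose (median 5) and 1 to 14 at the High dose (median 3.5). Hbb-bh1, the other embryonic beta-type chain, had 0 to 4 counts with vehicle (median 1.5), 0 to 25 at the Med dose (median 3.5) and 1 to 88 at the High dose (median 7). Hba-x, the zeta-type embryonic alpha chain, had 0 to 3 counts with vehicle (median 0.5) and at the Med dose (median 0.5), and 0 to 7 at the High dose (median 2.5). For each of these genes the ranges of the 3 groups overlapped in counts. These counts and those of single mice below are not scaled for library totals, which ran from 15099415 to 45589415.

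The highest counts came from single mice. In High mouse 43 Hbb-bh1 had 88 counts and Hbb-y 14, in Med mouse 41 Hbb-bh1 had 25, Hbb-y 16 and Hbb-bh2 50, and in Low mouse 31 on Day 1 Hbb-bh1 had 11 counts while the other Low mice had 0. High mouse 43 also had the lowest total globin share of its group, 10.9%, and the highest Gm26917 share, 1.47%. The log2 fold change of Hbb-bh1 at the High dose was 4.40 ± 0.91 with TMM factors and 3.11 ± 0.97 on total counts (adjusted p = 0.00883, edgeR's quasi-likelihood test). Over the 12 fits that each left out 1 mouse it was 3.25 to 4.74 with TMM factors, and a DEG in all 12. On total counts, Hbb-y (0.65 ± 0.57) and Hba-x (1.48 ± 0.85) were not DEGs at the High dose.

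Set against the adult globins, Hbb-y, Hbb-bh1 and Hba-x summed to a median of 1.67 counts per 1000000 adult globin counts with vehicle on Day 1, 1.95 at the Med dose and 3.34 at the High dose, where mouse 43 reached 25.0. The ranges of these groups overlapped. Hbb-bh2, whose protein product is not established, had 0 to 8 counts with vehicle (median 7), 4 to 50 at the Med dose (median 11) and 8 to 17 at the High dose (median 13), so that the vehicle and High ranges met at 8 counts.

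**Figure D4:**
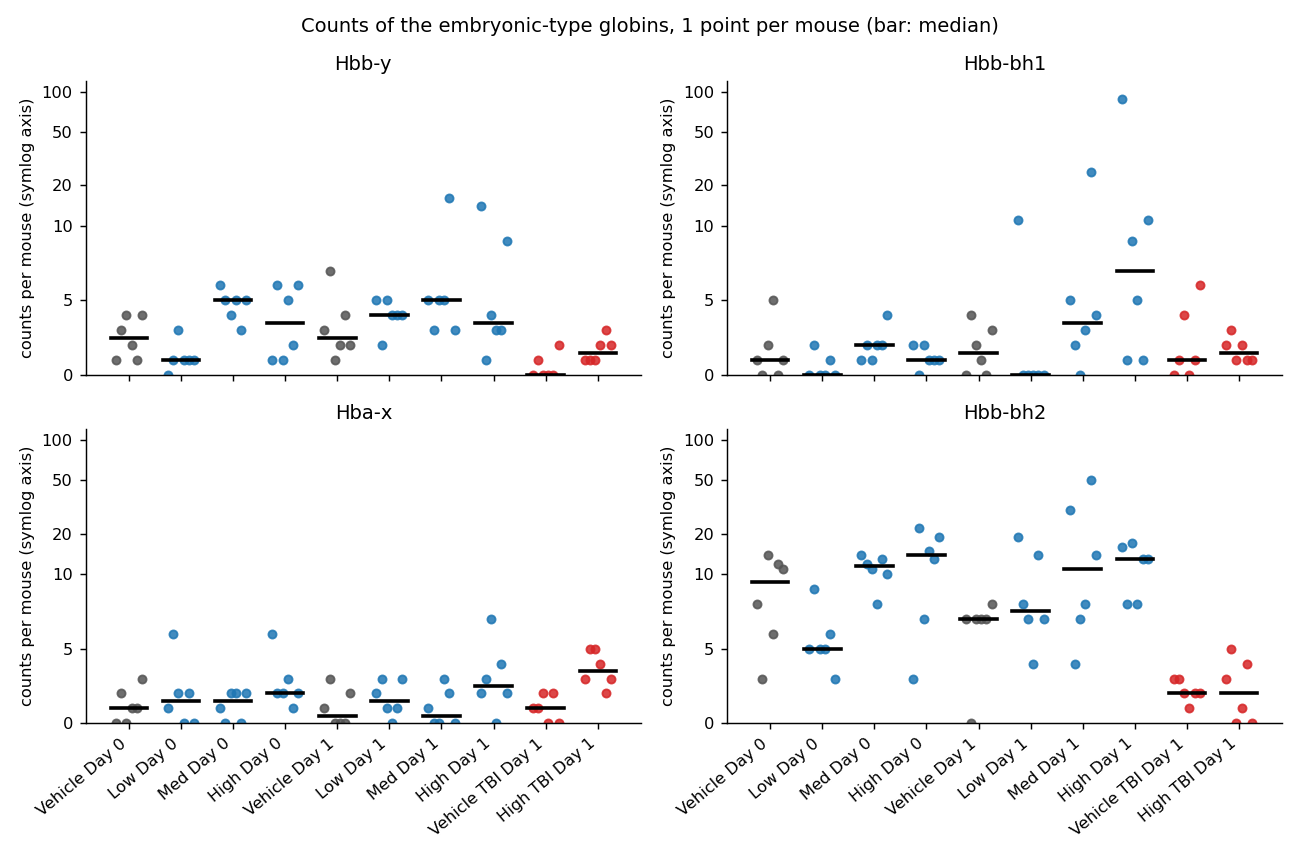
Counts per mouse of Hbb-y, Hbb-bh1, Hba-x and Hbb-bh2 (y axis, linear to 10 counts and logarithmic above) by group (x axis), with a bar at the median. Most mice have 5 counts or fewer of the embryonic genes, and the highest point is High mouse 43 on Day 1 with 88 counts of Hbb-bh1. Counts are not scaled for library totals.

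The balance of adult alpha to adult beta counts, a ratio within each library that no scaling factor changes, differed at the High dose. This ratio of counts still rests on the reads that could be placed on 1 gene, on the beta haplotype and on any globin removal. Their part was not tested, and the ratio is not a measure of chain balance. Beta counts per alpha count were 37.0, 49.9 and 56.9 (lowest, median and highest) with vehicle on Day 1 and 13.9, 29.9 and 34.6 at the High dose. The groups did not overlap, and mouse 46 was the lowest. The alpha to beta ratio was 1.78-fold higher in High mice, a mean log2 difference of 0.83 ± 0.22 (SE, n = 6 mice per group), with p = 0.00216 in a 2-sided exact permutation test and 0.0143 after Benjamini-Hochberg adjustment over 33 ratio tests. This p is the smallest that 6 against 6 mice can give, and the difference passed in each of 12 tests that left out 1 mouse. It did not pass with medians in place of means (adjusted exact permutation p = 0.0612). The unadjusted exact permutation p was 0.013, the smallest that a test of medians can give with 6 against 6 mice. No difference at that p could pass after adjustment here, so the test of medians cannot decide.

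At the Med dose beta per alpha was 17.5, 31.9 and 57.6, which overlapped the vehicle range. The log2 difference of the alpha to beta ratio was 0.60 ± 0.27, with an exact permutation p of 0.0606 (adjusted 0.222). Low mice on Day 1 spread from 28.9 to 90.7 beta per alpha (median 55.8), on both sides of the vehicle range. No other alpha to beta difference passed, and the adjusted p of the remaining 9 comparisons were 0.345 or more by the exact permutation test. Irradiated mice spread from 15.8 to 74.8 with vehicle (median 34.8) and from 16.3 to 72.6 at the High dose (median 63.3). Mouse 51 was the lowest of the former and mouse 56 of the latter.

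Within the adult beta counts, the share of Hbb-bt was lower at the Med and High doses on Day 1 and after TBI. It was 2.72% to 3.44% in vehicle-treated mice on Day 1 (median 3.37%), 1.72% to 2.51% at the Med dose (median 2.24%) and 2.00% to 2.56% at the High dose (median 2.29%). In irradiated, vehicle-treated mice it was 1.57% to 1.82% (median 1.68%). None of these treated groups overlapped the vehicle group of Day 1. The Hbb-bt to Hbb-bs ratio fell to 0.661 of the vehicle value at the Med dose, 0.688 at the High dose and 0.507 after TBI with vehicle, mean log2 differences of -0.60 ± 0.10, -0.54 ± 0.08 and -0.98 ± 0.07. Each had p = 0.00216, the smallest the exact permutation test can give, and 0.0143 after adjustment.

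Irradiated High mice had a share of 1.82% to 2.499% (median 2.29%), and they met irradiated vehicle-treated mice only at their lowest value. The ratio was 1.34-fold higher than in irradiated vehicle-treated mice (log2 difference 0.42 ± 0.08, exact permutation p = 0.00433, adjusted 0.0238). Against unirradiated High mice, the log2 difference was -0.02 ± 0.09, with an adjusted exact permutation p of 0.952. Against vehicle-treated mice of Day 0, with 2.99% to 3.99% (median 3.67%), irradiated vehicle-treated mice had a ratio of 0.469 (log2 difference -1.09 ± 0.08, exact permutation p = 0.00216, adjusted 0.0143). Without mouse 51 the irradiated vehicle share was 1.57% to 1.82% (median 1.75%). Over all ratios 6 differences passed, the Hbb-bt to Hbb-bs differences given here and the alpha to beta difference at the High dose on Day 1. Each of the 6 passed in each of 12 tests that left out 1 mouse. None of the 6 passed with medians in place of means, each with an adjusted exact permutation p of 0.0612. Each was at the smallest p that the test of medians can give, so that test cannot decide. Hbb-bt shares on Day 0 (medians 3.70% at the Low, 3.62% at the Med and 3.51% at the High dose) and at the Low dose on Day 1 (3.14%) gave no difference that passed, with adjusted p of 0.487 or more by the exact permutation test.

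Within the adult alpha counts, Hba-a2 held 22.7% to 33.8% over all mice, with group medians from 24.9% to 29.9%. None of the 11 Hba-a2 to Hba-a1 comparisons passed. The smallest adjusted p by the exact permutation test was 0.0612, between irradiated and Day 0 vehicle-treated mice (log2 difference -0.29 ± 0.08). As set out with the sequences above, ratios within a pair rest on the reads that could be placed on 1 copy.

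**Figure D5:**
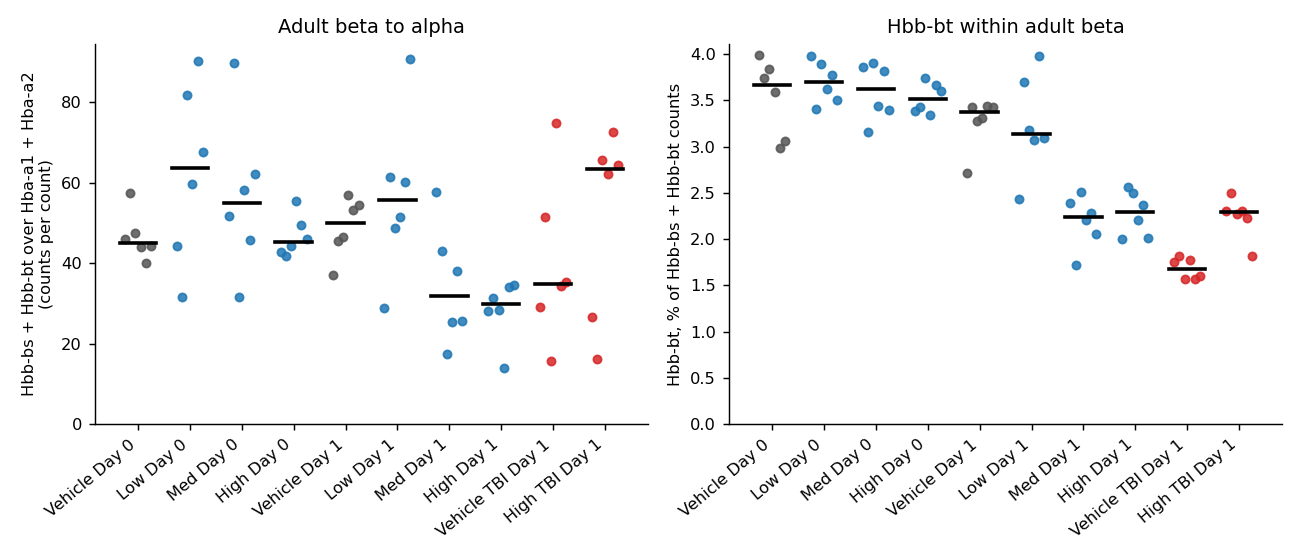
Adult beta counts per adult alpha count (left y axis) and Hbb-bt as a percent of adult beta counts (right y axis) in each mouse, by group (x axis), with a bar at the median. On Day 1 the Hbb-bt share lies at 2.72% to 3.44% with vehicle, 1.72% to 2.56% at the Med and High doses and 1.57% to 1.82% after TBI with vehicle.

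At the Low dose on Day 0, 4 of the 10 genes fell against vehicle with TMM factors, while 4.38% of all genes were lower DEGs. B and T cell markers moved in this comparison too, with values given with the marker lists below. The globin genes that fell were Hbb-bt (-1.13 ± 0.33), Hbb-bh2 (-1.44 ± 0.43), Hbq1a (-1.35 ± 0.29) and Hbq1b (-1.56 ± 0.29). On total counts 0 of the 10 were DEGs by edgeR's test, 3 had an unadjusted p under 0.05, and 11.7% of all genes were DEGs in either direction. Relative to the median of all genes, the globin median stood at -1.35 with TMM factors and -1.41 on total counts. DESeq2 called 5 of the 10.

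The groups overlapped for every globin gene. For the adult alpha and beta genes and the theta genes Low mouse 2 was the highest of its group. Hbq1b on total counts had 64.4, 72.5 and 88.9 CPM with vehicle and 29.3, 34.5 and 67.5 CPM at the Low dose, the last in mouse 2. Hbq1a and Hbq1b were DEGs in each of 12 fits that left out 1 mouse, Hbb-bt in 4 and Hbb-bh2 in 3. Without mouse 2, Hba-a1 and Hba-a2 were DEGs too, and 6 genes fell. Hba-a1 had 961, 1502 and 1826 CPM on total counts with vehicle and 311, 634 and 2506 CPM at the Low dose, where mouse 2 was the highest of both groups.

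The Med and High doses on Day 0 gave 0 of the 10 globin genes by edgeR's test and 0% of all genes in each comparison. At an unadjusted p under 0.05 edgeR gave 0 and 1 globin genes and DESeq2 0 and 4. DESeq2 called 0 globin genes in both comparisons and 2 of all genes in each. Between vehicle-treated mice of Day 1 and Day 0, edgeR called 0 globin genes and 0% of all genes. By edgeR, 2 globin genes had an unadjusted p under 0.05. DESeq2 called 0 globin genes and 37 of all genes, with 5 globin genes at an unadjusted p under 0.05. Hbq1b alone did not overlap between these days on total counts, with 64.4 to 88.9 CPM on Day 0 and 44.5 to 63.0 CPM on Day 1 and a total-count log2 fold change of -0.46 ± 0.11 (adjusted p = 0.117, edgeR's quasi-likelihood test).

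Whether an effect on Day 1 differed from that on Day 0 was itself tested in a fit of 4 groups. With TMM factors the effect was higher on Day 1 for 6 of the 10 genes at the Low dose, against 6.73% of all genes, for 6 at the Med dose, against 15.7%, and for 7 at the High dose, against 13.1%. Hba-a2, Hbb-bt, Hbb-bh2, Hbq1a and Hbq1b passed at all 3 doses. Hba-a2 had differences of 1.74 ± 0.58, 3.00 ± 0.50 and 2.86 ± 0.43 on the log2 scale. On total counts 2, 2 and 3 genes were higher, with Hbq1a and Hbq1b at the Low dose, Hba-a1 and Hba-a2 at the Med dose, and Hba-a1, Hba-a2 and Hbb-bh1 at the High dose. On that scale 395 of 26323 genes were higher at the Low dose, 3.52% at the Med dose and 2.40% at the High dose, and 40.2%, 59.9% and 54.9% passed in either direction. For Hbb-bt at the High dose the sign turned, from 1.19 with TMM factors to -0.14 on total counts.

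After TBI, the adult globin levels of vehicle-treated mice overlapped those of unirradiated mice on Day 1 for every gene on the TMM scale. EdgeR's test and DESeq2 called 0 of the 10. By edgeR, 1 had an unadjusted p under 0.05, while 36.0% of all genes were DEGs in either direction. On total counts 2 fell, Hbb-bt (log2 fold change -1.26 ± 0.39, adjusted p = 0.0199, edgeR's quasi-likelihood test) and Hbb-y (-2.41 ± 0.82, adjusted p = 0.0317), while 22.5% of all genes were lower DEGs on that scale, so the members' share was near the background. Hbb-bt had 240, 1424 and 2422 CPM in irradiated mice against 2799, 3201 and 3545 CPM with vehicle alone, and the groups did not overlap on this scale. The lowest value was that of mouse 51. Hbb-y had 0 to 2 counts in irradiated vehicle-treated mice, with a median of 0.

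Against vehicle-treated mice of Day 0, 1 globin gene fell after TBI with TMM factors, Hbb-bh2 (-1.94 ± 0.50, adjusted p = 0.00851, edgeR's quasi-likelihood test), while 11.8% of all genes were lower DEGs. It had 3 to 14 counts per mouse on Day 0 (median 9.5) and 1 to 3 after TBI (median 2), so the groups met at 3 counts. The call held in each of 12 fits that left out 1 mouse. On total counts Hbb-bt (-1.28 ± 0.40) and Hbq1b (-1.17 ± 0.37) fell as well, 3 of the 10 genes in all, while 11.8% of all genes were lower DEGs on that scale. The irradiated vehicle group serves in both of these comparisons.

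Between the irradiated groups, High against vehicle, edgeR and DESeq2 called 0 of the 10 globin genes, 1 had an unadjusted p under 0.05, and 0% of all genes were DEGs. Hba-x had the largest log2 fold change (1.75 ± 0.67 with TMM factors), on 2 to 5 counts per mouse against 0 to 2. Hbb-bt had 1410, 2592 and 3146 CPM on total counts at the High dose, and its log2 fold change was 0.86 ± 0.43. Without mouse 51 or mouse 57 the count of DEGs among the globin genes was 0 in each case.

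Irradiated High mice against unirradiated High mice gave 8 lower globin genes with TMM factors, while 5.73% of all genes were lower DEGs. Hba-a1 (-1.89 ± 0.59), Hba-a2 (-2.12 ± 0.53), Hbb-bt (-1.39 ± 0.42), Hbb-y (-2.44 ± 0.59), Hbb-bh1 (-3.75 ± 0.88), Hbb-bh2 (-3.38 ± 0.81), Hbq1a (-1.56 ± 0.32) and Hbq1b (-2.21 ± 0.33) fell. Neutrophil markers were higher in the irradiated mice, with values given with the marker lists below. Hbb-bs (-1.34 ± 0.95, adjusted p = 0.303, edgeR's quasi-likelihood test) and Hba-x (-0.81 ± 0.73) did not pass. On total counts 5 fell, Hba-a2, Hbb-y, Hbb-bh1, Hbb-bh2 and Hbq1b, against 0.945% of all genes.

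Hbq1b showed the clearest separation in this comparison. On total counts it had 18.9, 32.5 and 40.6 CPM in irradiated High mice and 68.2, 77.0 and 92.0 CPM in unirradiated High mice, without overlap, and a log2 fold change of -1.38 ± 0.19 (adjusted p = 0.000152, edgeR's quasi-likelihood test). Hbb-bh2 had 0 to 5 counts against 8 to 17, also without overlap. Relative to all genes, the globin median stood at -2.41 with TMM factors and -2.51 on total counts. Leaving out 1 mouse at a time, Hba-a1 kept its call in 5 of 12 fits and Hbb-bt in 8, and the other 6 genes in all 12. Without mouse 57 the count was again 8.

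The test of the High effect in irradiated against unirradiated mice gave 5 lower globin genes, against 10.0% of all genes, with TMM factors. These were Hba-a1 (-2.27 ± 0.69), Hba-a2 (-2.38 ± 0.65), Hbb-bh1 (-4.37 ± 1.3), Hbq1a (-1.93 ± 0.54) and Hbq1b (-1.92 ± 0.57). On total counts Hbb-bh1 alone passed (-3.44 ± 1.4, adjusted p = 0.0416, edgeR's quasi-likelihood test), while 1.80% of all genes were lower and 45.4% passed in either direction.

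Other genes of the red cell were taken from lists chosen with earlier results of these data known, so their counts are no independent evidence of a direction. Among genes of the haem synthesis list, 11 of 11 tested rose at the High dose on Day 1 with TMM factors, against 17.3% of all genes. Their median was 1.78, and 0 were DEGs on total counts (median 0.24). Ahsp, the globin chaperone of this list, was not found by name among the counted genes and was not tested. Urod, an enzyme of haem synthesis, had a log2 fold change of 2.24 ± 0.19 and Eif2ak1, the haem-regulated kinase that restrains globin translation, one of 1.78 ± 0.16. Among red cell membrane and enzyme genes, 12 of 12 rose (median 1.63), among them Epor, the erythropoietin receptor (2.88 ± 0.18), and Rhag, a partner of the Rh proteins (2.47 ± 0.21), and 1 was a DEG on total counts. Among 11 regulators of the globin loci 7 rose, including Nfe2 (2.68 ± 0.15) and Tal1 (2.78 ± 0.18), both transcription factors of the erythroid lineage. On total counts 3 of these regulators rose and 3 fell, while 3.03% of all genes were higher and 65.5% lower DEGs. Among 6 genes of haemoglobin clearance 2 rose, Slc48a1, a haem transporter (2.24 ± 0.23), and Hebp1, a haem-binding protein (2.04 ± 0.20).

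The Med dose gave 11 of 11, 9 of 12 and 7 of 11 higher genes in the haem synthesis, membrane and regulator lists, against 18.2% of all genes. At the Low dose on Day 0, 12 of 12 membrane, 7 of 11 regulator and 5 of 11 haem synthesis genes fell with TMM factors, against 4.38%. On total counts the regulators there summed to 831 to 928 CPM (median 861) against 772 to 943 CPM with vehicle (median 909), with overlap. The membrane genes summed to a median of 8822 CPM against 21847 CPM, and the haem synthesis genes to 30755 CPM against 66617 CPM. Neither of these sums overlapped between the groups. In irradiated against unirradiated High mice, 9 of 12 membrane, 4 of 11 regulator and 3 of 11 haem synthesis genes fell, against 5.73%. Some members stood higher with irradiation on total counts. Gata1, a regulator, had 95.6 to 253 CPM against 59.8 to 86.8 CPM, without overlap. Epor, of the membrane list, had 9.16 to 26.5 CPM against 5.95 to 10.9 CPM, with overlap. The regulators summed to a median of 1387 CPM against 1034 CPM, also with overlap. After TBI with vehicle against vehicle on Day 1, 3 of 12 membrane and 3 of 11 haem synthesis genes rose, and 5 of 11 regulators rose while 2 fell. In that comparison 19.6% of all genes were higher and 16.4% lower DEGs, so the membrane and haem synthesis shares were near the background. Of the other globin family genes, Adgb (1.11 ± 0.58) and Cygb (1.38 ± 0.83), which belong to non-erythroid globins, were not DEGs at the High dose.

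Markers of other blood cells moved in the same comparisons. At the High dose on Day 1, 7 of 7 platelet markers rose on both scales, with list medians of 3.23 with TMM factors and 1.67 on total counts, among them Gp1bb (3.57 ± 0.20) and Treml1 (3.46 ± 0.21). Of all genes, 17.3% were higher DEGs with TMM factors and 3.03% on total counts, and 30.5% and 65.5% were lower DEGs. All 8 B cell markers and all 8 T cell markers fell on both scales, with medians of -1.73 and -1.67 with TMM factors, as for Fcer2a (-2.03 ± 0.26), Cd4 (-1.997 ± 0.276) and Cd28 (-1.24 ± 0.15). None of 8 neutrophil markers was a DEG with TMM factors, with S100a9 at 0.94 ± 0.21 and S100a8 at 0.97 ± 0.23. None of 8 hepatocyte markers was a DEG, with Fgb at -0.998 ± 1.75 and Apob at -0.68 ± 1.87. After TBI with vehicle, 7 of 7 platelet and 8 of 8 neutrophil markers rose against vehicle on Day 1, and all 8 B cell and all 8 T cell markers fell. In that comparison 19.6% of all genes were higher and 16.4% lower DEGs with TMM factors. At the Low dose on Day 0, where globin genes fell with TMM factors, B cell markers summed to 2048 to 2683 CPM on total counts (median 2380) against 790 to 1557 CPM with vehicle (median 1262), without overlap. T cell markers summed to 482 to 1090 CPM (median 841) against 175 to 619 CPM (median 407), with overlap. In each of these lists 5 of 8 genes rose on total counts, against 10.5% of all genes, and 0 of 8 were DEGs with TMM factors. Platelet markers fell for 5 of 7 genes with TMM factors, against 4.38% of all genes, and for 0 on total counts. In irradiated against unirradiated High mice, neutrophil markers summed to 1801 to 6787 CPM (median 2822) against 261 to 532 CPM (median 308), without overlap. Of these 8 markers 7 rose with TMM factors, against 14.9% of all genes. In the same comparison 7 of 8 B cell markers and 1 of 8 T cell markers fell, against 5.73% of all genes. The part of these cell types in the globin results was not tested.

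The genes whose levels followed the summed adult globins most closely over the 60 mice were Ube2l6 (Pearson r = 0.970), March2 (0.968), Oaz1 (0.967), Isg20 (0.966) and Bola3 (0.966), on log2(CPM + 1) with TMM factors among 6732 genes with a mean of at least 10 CPM. On total counts they were the same 5, with r from 0.886 to 0.901 among 7052 genes. The median r over all genes was 0.0545 with TMM factors and -0.597 on total counts. The mice share group effects, library composition and scaling, so these values are descriptions.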

How the data were processed

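Whole-blood RNA of 60 mice was sequenced. The authors used Trimmomatic 0.36 for trimming and STAR 2.5.2b for alignment to GRCm38, and deposited unique gene hit counts from Subread 1.5.2, without normalization, in 10 tables of 49315 genes. The annotation release and read length were not given in the sources used here. From the deposited tables of the authors' own fold changes and p-values, only gene names were read. Counts of a mouse repeated between tables were identical.

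Each pair of groups was fitted with edgeR 4.0.16 (quasi-likelihood test, TMM) in R 4.3.3 with limma 3.58.1, on genes reaching 10 counts in total in those mice, with Benjamini-Hochberg adjustment over all genes tested. As in the study's methods, DEGs were genes with an absolute log2 fold change over 1 and an adjusted p under 0.05. Differences between effects were contrasts in fits of 4 groups. Levels in CPM use total counts or TMM factors over all 60 mice. Ratios between adult genes were compared on the log2 scale with 2-sided exact permutation tests. Alternatives were total-count scaling, DESeq2 1.42.0, other filters, a term for odd or even animal number, and leaving out each mouse. Fits were tested on simulated data.

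The globin genes were all named. From each other list, the 2 genes with the smallest adjusted p at the High dose on Day 1 were named (1 of them is not reported here), and the 5 genes most like the adult globins were taken by Pearson r. The members and lists were chosen with earlier results of these data known. Detection limits cover counting error only. The ± values of ratios are standard errors from the spread between mice. Those of edgeR's fits were worked back from the log2 fold change and the F statistic of the test. The p-values set differences against the spread between mice of 1 study.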

Additional observations from a re-analysis of the deposited data

Results flagged for a closer look

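In 7 of 50 checks of a globin measure within a group of 6 mice, 1 mouse stood apart from the rest by Dixon's test. Chance gives about 1 in 20 for independent, normally distributed values. The measures share libraries and the embryonic sum rests on few counts, so the 7 cannot be read as an excess. High mouse 22 on Day 0 had the highest globin share of its group, 13.8% of counts. High mouse 46 on Day 1 had the lowest beta to alpha count ratio, 13.9. Vehicle mouse 25 on Day 1 had the lowest Hbb-bt share of adult beta counts, 2.72%, and Med mouse 9 on Day 0 the lowest Hba-a2 share of adult alpha counts, 26.2%. The summed embryonic genes Hbb-y, Hbb-bh1 and Hba-x were highest in vehicle mouse 26 on Day 1 (0.562 CPM), Low mouse 31 on Day 1 (0.591 CPM) and High mouse 43 on Day 1 (2.71 CPM).

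Effects that differed between days or between irradiated and unirradiated mice, by the contrast itself with TMM factors in edgeR, concerned the following genes, each given as a log2 difference. Between Day 1 and Day 0 at the Low dose these were Hba-a2 (1.74), Hbb-bt (1.58), Hbb-y (2.37), Hbb-bh2 (2.502), Hbq1a (2.09) and Hbq1b (2.38). At the Med dose they were Hba-a1 (3.14), Hba-a2 (3.00), Hbb-bt (1.39), Hbb-bh2 (2.51), Hbq1a (2.07) and Hbq1b (2.05). At the High dose they were Hba-a1 (2.60), Hba-a2 (2.86), Hbb-bt (1.19), Hbb-bh1 (4.77), Hbb-bh2 (1.94), Hbq1a (1.86) and Hbq1b (1.55). The High effect in irradiated minus unirradiated mice differed for Hba-a1 (-2.27), Hba-a2 (-2.38), Hbb-bh1 (-4.37), Hbq1a (-1.93) and Hbq1b (-1.92).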

How the results depend on the processing

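Scaling changed the counts of globin DEGs most. On total counts they were 0 for the Low dose on Day 0, 3 for TBI against vehicle on Day 0, 3 for the Med and 3 for the High dose on Day 1, 2 for TBI against vehicle on Day 1 and 5 for irradiated against unirradiated High mice. The contrasts of Day 1 with Day 0 gave 2, 2 and 3 at the Low, Med and High doses and that of irradiated with unirradiated mice 1. Of 56 called values, 35 lost the call on total counts with the same sign, 20 kept it, and 1 reversed, Hbb-bt in the High contrast of days (-0.14). The cause was not tested. The stricter filterByExpr removed low genes before testing, leaving 0 for TBI against vehicle on Day 0, 6 for the High dose on Day 1 and 5 for irradiated against unirradiated High mice. DESeq2 kept all 56 called values, no filter on low counts 54 and a term for odd or even animal number, which is no stated batch, 55.

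With each mouse left out in turn, the counts ranged from 2 to 6 for the Low dose on Day 0 (6 without Low mouse 2), 1 to 2 for TBI against vehicle on Day 0, 0 to 1 for TBI against vehicle on Day 1, 8 to 9 for the Med and 9 to 10 for the High dose on Day 1, and 6 to 8 for irradiated against unirradiated High mice. The alpha to beta log2 difference ranged from -0.067 to 0.047 for the High dose on Day 0 and from 0.42 to 0.77 for the Med dose on Day 1, where the highest passed. The Hbb-bt to Hbb-bs difference ranged from -0.019 to 0.067 for the Med and -0.044 to 0.042 for the High dose on Day 0, -0.088 to 0.059 for the Low dose on Day 1 and -0.059 to 0.037 for irradiated against unirradiated High mice. The Hba-a2 to Hba-a1 difference ranged from -0.055 to 0.031 for the Low and -0.039 to 0.050 for the Med dose on Day 0, and from -0.34 to -0.25 for TBI against vehicle on Day 0, where the lowest passed.

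With medians in place of means no ratio difference passed (adjusted exact permutation p of 0.0612 for those that had). The alpha to beta difference at the High dose on Day 1 was 0.74. The Hbb-bt to Hbb-bs differences were -1.16 for TBI against vehicle on Day 0, -1.03 against vehicle on Day 1, -0.60 for the Med and -0.57 for the High dose on Day 1, 0.46 between the irradiated groups, -0.019 for the Med and -0.064 for the High dose on Day 0, and 0.00071 for irradiated against unirradiated High mice. The Hba-a2 to Hba-a1 differences were -0.031 for the Med dose on Day 0 and -3.77e-05 for the High dose on Day 1.

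No paired analysis was possible because each animal number belongs to 1 group. Depth limits the embryonic genes most, since most mice had few counts of them.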

Other observations

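Myoglobin (Mb), the oxygen store of heart and skeletal muscle and a relative of the globin genes, stood at 1928 CPM on total counts in High TBI mouse 57, while no other mouse passed 2.01 CPM. The same mouse had the lowest globin share of its group and 14661 CPM of hepatocyte markers.

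The globin share of counts also differed between odd and even animal numbers in some groups, a split that the labels give no meaning. The medians of 3 odd and 3 even mice were 4.12% and 8.36% in Low mice and 6.71% and 13.2% in Med mice on Day 0, and 4.54% and 9.68% in irradiated vehicle-treated and 7.44% and 13.2% in irradiated High mice. Odd and even mice did not overlap in the first 3 of these groups and overlapped in the last.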
